A study of Neurospora crassa with 22 samples.

Results

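The transcripts described here were those of Neurospora crassa that could be compared in either direction between the RNA pulled down with GUL-1-GFP and the RNA of the whole extract (the input) after exposure to Nikkomycin Z. A transcript was taken when it had more than 3 counts in each of the 2 GUL-1-GFP inputs with Nikkomycin Z. This held for 1538 of the 10592 features in the count table. Of the 1538, 1516 were protein-coding, 15 were rRNA, 4 were ncRNA, 2 were pseudogenes and 1 was not matched to the annotation. The comparison was drawn between 5 of the 22 libraries of the series, namely pull-downs 1, 2 and 3 and inputs 2 and 3. An input of replicate 1 was not analysed here.

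The GUL-1-GFP strain, of mating type A, carries Pccg1-gul-1-sgfp at his-3 and hph in place of the native gene (deltagul-1). Its gul-1-sgfp is read from the promoter of ccg-1, a clock-controlled gene, and not from the promoter of gul-1. It is a single transgenic strain. The hyphae grew in Vs, which is Vogel's minimal medium with sucrose, and received 1e-05 M Nikkomycin Z for the last 1 h. The groups set beside this comparison were the non-tagged wild-type under the same exposure (3 pull-downs with the same beads and 3 inputs) and GUL-1-GFP under standard growth conditions, which had no drug (3 pull-downs and 2 inputs). The study's methods mention biological replicates, but neither they nor the labels say which libraries came from separate cultures. The p-values therefore measure the spread between libraries, part of which may be technical. That spread was estimated in 1 model of all 22 libraries in 8 groups. The model thus also held the non-tagged wild-type under standard growth conditions (3 pull-downs and 3 inputs, 1 of them with 59 protein-coding counts).

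GUL-1 is the N. crassa homolog of Ssd1, an RNA-binding protein of the yeast Saccharomyces cerevisiae that associates with mRNAs of cell wall proteins and is regulated by an NDR kinase, the family to which COT-1 of N. crassa belongs. Nikkomycin Z is an inhibitor of chitin synthases and so disturbs the building of the fungal cell wall, which consists mainly of chitin, glucans and mannoproteins. In RNA immunoprecipitation a transcript carried by the tagged protein takes a larger share of the pull-down than of the input, and a transcript that is not carried takes a smaller one.

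Total counts in the 5 libraries ranged from 6682673 to 24135546, and rRNA held 66.9 to 93.2% of them. Protein-coding counts were far fewer. Pull-downs 1, 2 and 3 had 5200733, 1307150 and 4238848 protein-coding counts, and inputs 2 and 3 had 41941 and 44869, which was 0.328 and 0.671% of their totals. The inputs therefore set the precision of every ratio given here. One count may also not be 1 sequenced fragment. Among features with 1 to 15 counts, 59.6% in input 2 and 68.5% in input 3 had an even count, against 41.2, 44.6 and 45.5% in pull-downs 1, 2 and 3. A count of 1 was held by 1.16 and 0.732% of such features in the inputs. The labels of the strains were checked with the transcript of gul-1 (NCU01197). In GUL-1-GFP with Nikkomycin Z it had 46184, 12020 and 40095 counts in pull-downs 1, 2 and 3 and 436 and 536 in inputs 2 and 3, against 112, 33 and 93 in the wild-type pull-downs and 39, 47 and 14 in the wild-type inputs, so that each of these GUL-1-GFP libraries was above each wild-type library.

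Among the 1538 transcripts, 238 were higher and 30 were lower in the pull-downs than in the inputs at an adjusted p under 0.05 (edgeR's quasi-likelihood test, p-values adjusted by Benjamini-Hochberg over the 7114 features tested). The 238 were 15.5% of the transcripts with input counts, against 18.8% of all features tested, and the 30 were 1.95%, against 0.45%. These shares are set in part by the choice of transcripts, which used the counts of these same inputs. Past a log2FC of 2, the counts were 215 higher (14%, against 18.5%) and 24 lower (1.56%, against 0.365%). At an unadjusted p under 0.05 they were 395 and 89, against 2357 and 110 of the 7114 features tested. The 5576 features tested that had 3 counts or fewer in at least 1 input, which are not described further, had a median log2FC of 5.30, with 1099 called higher and 2 called lower. Medians were similar just inside and just outside the limit. The 105 features whose lower input count was 3 had a median log2FC of 0.49, and the 236 at 4 and the 122 at 5 had 0.52 and 0.50.

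The groups did not overlap in CPM (counts scaled to a common library size, after TMM normalization) for any of the 238 or the 30. Without regard to the test, CPM was higher in all pull-downs than in both inputs for 767 transcripts (49.9%, against 56.5% of all features tested) and lower for 298 (19.4%, against 4.74%). The log2FC of the 238 ranged from 1.64 to 9.79 with a median of 2.83, and 107 exceeded 3 and 32 exceeded 5. The log2FC of the 30 ranged from -6.67 to -1.48 with a median of -2.83. The median of all 1538 was 0.53, so a log2FC near 0.5 was that of a typical transcript with input counts and not of an enriched one. The share of transcripts called higher changed little with input level: it was 15.3% of the 543 transcripts with up to 19 summed input counts, 14.6% of 637 with 20 to 49, 18.2% of 303 with 50 to 199 and 12.7% of 55 with 200 or more. The share called lower was 0.552, 1.88, 3.63 and 7.27% in the same order.

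**Figure D1:**
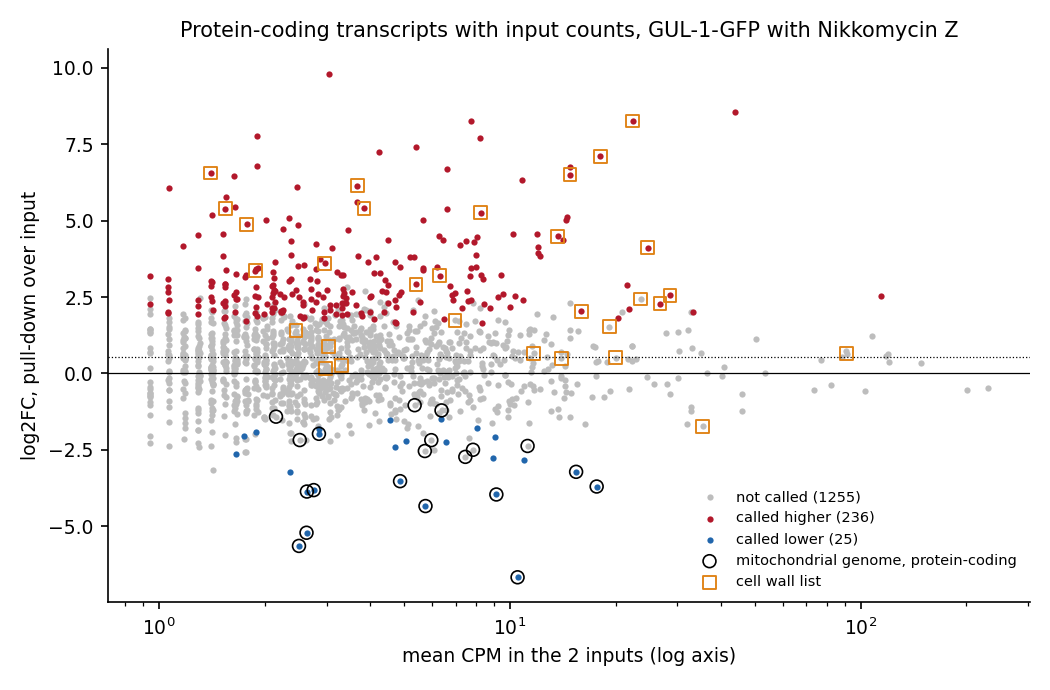
Mean CPM in the 2 inputs (horizontal, log axis) against the log2FC of pull-down over input (vertical) for the 1516 protein-coding transcripts with input counts. Red points were called higher (236), blue points lower (25) and grey points in neither direction (1255); orange squares mark the cell wall list, black circles the protein-coding genes of the mitochondrial genome, and the dotted line is the median of 0.53 over the 1538 transcripts. Cell wall transcripts lie mostly above the dotted line and all mitochondrial ones lie below 0.

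How many transcripts were higher and how many lower depended on the scaling of the libraries. With total counts as library sizes the counts were 757 and 1, with TMM computed on the 1538 transcripts 112 and 59, with protein-coding genes only 181 and 42, with DESeq2 on the 22 libraries 577 and 21, with DESeq2 on the 5 libraries 333 and 328, and with edgeR on the 5 libraries 322 and 199. The median log2FC of the 1538 moved with them, to 2.69, -0.07, 0.28, 1.21, -0.07 and 0.08. Of the 238, 236 had a log2FC above 0 in each of the 16 other fits, whereas of the 30 only 16 had one below 0 in each. The fit of protein-coding genes only did not hold the 2 higher and 5 lower features of other classes. These could therefore not be counted here, nor as called in all 16 fits. Single libraries also moved the counts. Without pull-down 1 the counts were 120 and 15, and 118 of the 238 and 16 of the 30 lost their call. Without pull-down 3 the counts were 135 and 12, without input 2 they were 104 and 9, and without input 3 they were 96 and 13. Of the 238, 83 were called higher in all 16 other fits. Among them were all 12 transcripts with the highest log2FC.

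The 236 protein-coding transcripts called higher made up most of the mRNA on the beads. They held 74.5, 68.5 and 72.7% of protein-coding counts in pull-downs 1, 2 and 3, but 13.4 and 12.3% in inputs 2 and 3. In the wild-type they held 13.7 to 15.2% in the pull-downs and 12.8 to 13.0% in the inputs. These shares need no scaling between libraries, although the transcripts were selected for the difference. Protein-coding transcripts called in neither direction held 12.5, 17.5 and 14.0% in the pull-downs and 71.2 and 72.5% in the inputs. They held 42.2 to 46.4% in the wild-type pull-downs and 43.7 to 47.5% in the wild-type inputs, below their share of the GUL-1-GFP inputs by whose counts they were taken. Shares of one library have a fixed sum, so the rise of the 236 by itself lowers the share of the rest. The median log2FC of the 1270 transcripts called in neither direction was 0.32. The concentration was steep: 9, 11 and 8 transcripts held 50% of the protein-coding counts in pull-downs 1, 2 and 3, whereas 234 and 237 were needed in the inputs and 356 to 534 in the wild-type libraries with Nikkomycin Z. Pull-down 2 was the least concentrated of the 3, and the median log2 ratio of the 238 to the mean input was also lowest there (3.03, 2.41 and 2.76 in pull-downs 1, 2 and 3).

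**Figure D2:**
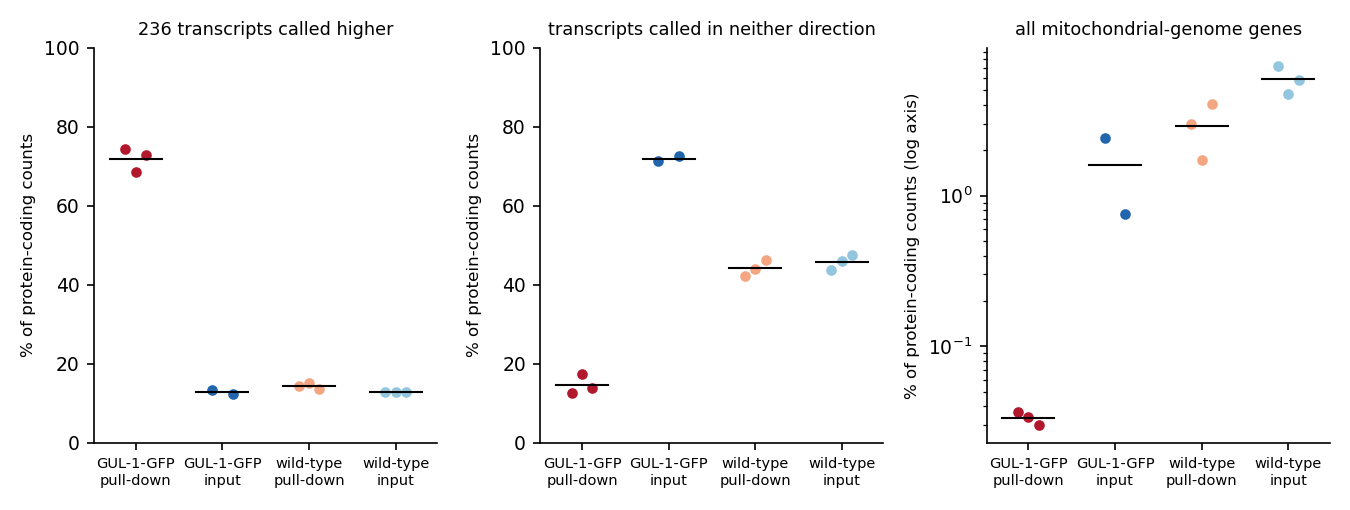
Share of protein-coding counts (percent) in each library with Nikkomycin Z, held by the 236 protein-coding transcripts called higher (left), by transcripts called in neither direction (middle) and by the protein-coding genes of the mitochondrial genome (right, log axis). Points are libraries and bars are group means; the transcripts called higher held 68.5 to 74.5% of the GUL-1-GFP pull-downs and 12.3 to 15.2% of every other library shown.

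The highest log2FC belonged to NCU06737, a hypothetical protein. It had 227678, 41828 and 146633 counts in pull-downs 1, 2 and 3 and 11 and 15 in inputs 2 and 3, or 3784, 1773 and 2545 CPM against 2.66 and 3.44. All pull-downs lay far above both inputs, and the log2FC was 9.79 ± 1.06 (SE; edgeR's quasi-likelihood test, adjusted p = 2.73e-06). A single transcript, tah-3 (NCU03686), held 21.1, 25.0 and 23.8% of the protein-coding counts in the pull-downs and 0.72 and 0.143% in the inputs. Its name in the product annotation is oxidase assembly protein 2. The CPM of tah-3 was 18251, 13837 and 17530 in the pull-downs and 73.0 and 14.7 in the inputs, so the inputs differed from each other more than the pull-downs did. Its log2FC was 8.56 ± 1.15 (edgeR's quasi-likelihood test, adjusted p = 1.66e-05).

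Enzymes of the cell wall were among the transcripts with the largest ratios. NCU05404, which the study calls ghx-2 and whose product is named endoglucanase, had 508015, 107539 and 438109 counts in the pull-downs and 94 and 96 in the inputs. It alone held 9.77, 8.23 and 10.3% of the protein-coding counts in the pull-downs, against 0.224 and 0.214% in the inputs, and its log2FC was 8.26 ± 1.15 (edgeR's quasi-likelihood test, adjusted p = 2.48e-05). NCU02668, named after a cell wall synthesis protein of Penicillium chrysogenum, had 3101, 1721 and 2630 CPM in the pull-downs and 21.0 and 15.2 CPM in the inputs (log2FC 7.10 ± 1.01). NCU05789, a secreted glucosidase, had 870, 429 and 614 CPM against 4.35 and 4.13 CPM (log2FC 7.23 ± 1.01). In each of these pull-down 2 was the lowest of the pull-downs in CPM and lay above both inputs.

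Other transcripts of the leading 12 encode proteins of signalling, gene regulation and metabolism. gng-1 (NCU00041), the gamma subunit of heterotrimeric G proteins, which forms a dimer with the beta subunit, had 538, 310 and 400 CPM in the pull-downs and 2.42 and 1.38 CPM in the inputs (log2FC 7.78 ± 0.90). kal-1 (NCU03593), which encodes a homeobox transcription factor, had 2411, 1058 and 1653 CPM against 7.98 and 8.49 CPM (log2FC 7.69 ± 0.87). NCU06189, the 5-aminolevulinate synthase that opens heme synthesis, had 237, 154 and 233 CPM against 2.66 and 1.15 CPM (log2FC 6.77 ± 1.15). The remaining 4 were hypothetical proteins, with log2FC of 8.28 for NCU00811, 7.42 for NCU04373, 6.75 for NCU09326 and 6.70 for NCU01477. Together the 12 held 52.3, 49.8 and 52.7% of the protein-coding counts in the pull-downs and 1.62 and 1.09% in the inputs, against 1.14 to 2.12% in the wild-type libraries with Nikkomycin Z.

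**Figure D3:**
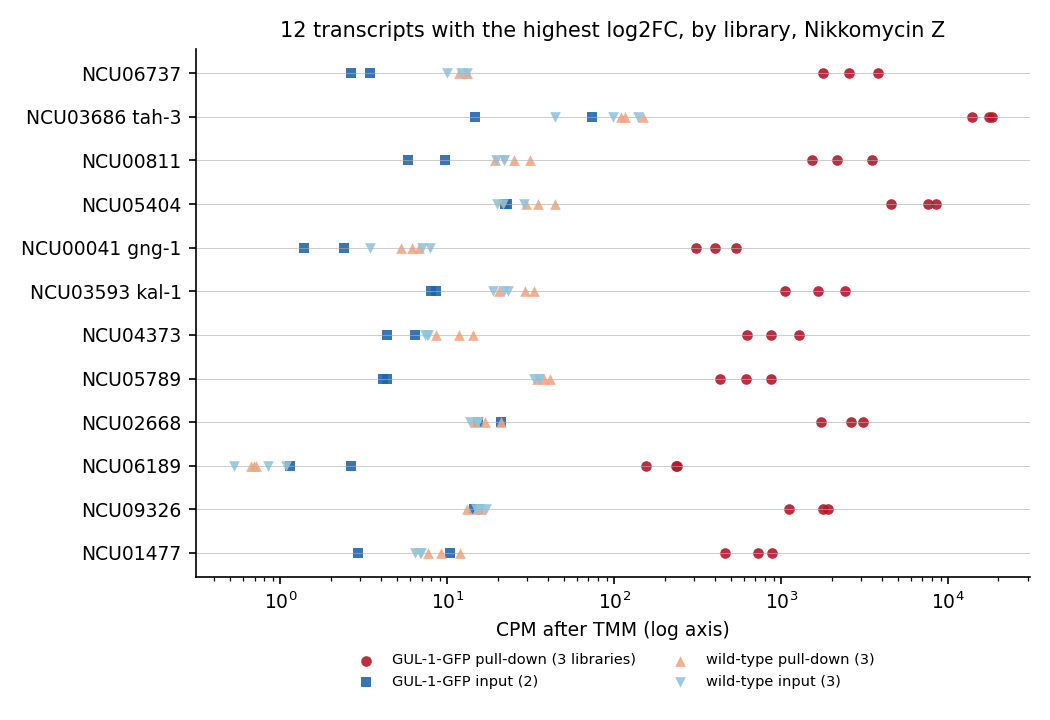
CPM after TMM (horizontal, log axis) of the 12 protein-coding transcripts with the highest log2FC, one row each, in every library with Nikkomycin Z. Red circles are GUL-1-GFP pull-downs, dark blue squares GUL-1-GFP inputs, orange triangles wild-type pull-downs and light blue triangles wild-type inputs. In every row the red circles lie to the right of all other points, as for NCU06737 with 1773 to 3784 CPM against at most 13.1 CPM elsewhere.

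Gene lists were formed from words in product names and symbols. Genes that the study names were added by gene number to the cell wall list (ghx-2 among them) and to the RNA-binding list. Each list is described by its counts and median beside those of the 1538 transcripts, of which 15.5% were higher and 1.95% lower. Transcripts with an informative name or symbol were called somewhat more often than the others (145 of 864 protein-coding transcripts, or 16.8%, against 91 of 652, or 14%), which is the background for lists built on names. All product names come from the study's own supplement. Its lists used were those of motif-bearing transcripts and of the RNA species and proteins that interact with GUL-1. The gene lists are therefore not independent of enrichment. The difference of a list's median from that of the 1538 is given because it varied little under the scalings named above, in contrast to the median itself. It did change with the choice of transcripts. With at least 10 counts in each wild-type input as the limit, the difference from all 3576 transcripts was 3.56 for the cell wall list and -0.02 for signalling. It was then 0.27 for the motif list and -4.39 for mitochondrial transcripts.

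The cell wall list had the highest median. Of 30 members with input counts, 18 (60%) were higher and 0 were lower, with a median log2FC of 2.74, which was 2.21 above that of the 1538. Between 13 and 26 members were called higher and 0 or 1 lower in the 16 other fits, and the median was above 0 in each. Several of the values that follow were chosen after they were seen, since the rule for named transcripts covered only the extremes of each list. The glucanosyltransferases, which lengthen beta-1,3-glucan chains in the wall, were represented by NCU06781 (named Gel2), gel-3 (NCU08909) and gel-4 (NCU07253), with log2FC of 6.56, 4.11 and 3.61. NCU06781 had 175, 86.7 and 137 CPM in the pull-downs against 0.967 and 1.84 CPM in the inputs. Wall proteins of the list were also higher, with log2FC of 6.50 for the non-anchored protein ncw-2 (NCU01752), 5.40 for ncw-1 (NCU05137) and 6.15 for the anchored protein acw-9 (NCU06185). wsc-1 (NCU06910), a homolog of the yeast wall stress sensors, had 445, 216 and 261 CPM against 14.5 and 12.9 CPM and a log2FC of 4.49 ± 0.77 (edgeR's quasi-likelihood test, adjusted p = 0.000205).

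The enzymes that make wall polymers spread over a wide range. The alpha-1,3-glucan synthase NCU08132 (ags-1) had 70.1, 43.9 and 59.5 CPM in the pull-downs against 4.35 and 8.27 CPM in the inputs, a log2FC of 3.19 ± 0.76 (edgeR's quasi-likelihood test, adjusted p = 0.00443, and 0.0794 without input 2). The catalytic subunit of beta-1,3-glucan synthase, NCU06871 (fks-1), had 155, 108 and 119 CPM against 21.3 and 25.9 CPM, and its log2FC of 2.43 ± 0.95 did not pass the test (adjusted p = 0.0701, edgeR). Among the chitin synthases, the enzymes that Nikkomycin Z inhibits, chs-5 (NCU04352) was higher with a log2FC of 2.29 ± 0.79 (edgeR, adjusted p = 0.0411, and 0.0522 to 0.241 without any 1 of the 5 libraries). The one named chitin synthase 6 (NCU04350) had a log2FC of 2.04 and was also called, although not without pull-down 1, pull-down 3, input 2 or input 3 (edgeR, adjusted p = 0.136 to 0.192). chs-4 (NCU09324) and chs-3 (NCU04251) were not, with log2FC of 0.26 and 0.15. For chs-3 the pull-downs had 3.32, 2.97 and 3.58 CPM and the inputs 4.35 and 1.61 CPM, so the groups overlapped, and the sign changed with scaling. ncw-5 (NCU00716) had the lowest value of the list, -1.73 ± 0.67 (edgeR, adjusted p = 0.0676).

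Some members of the list transfer mannose, the sugar of the chains on wall proteins. dpm (NCU07965), the dolichol-phosphate mannosyltransferase, had 86.6, 39.3 and 68.0 CPM against 1.93 and 1.15 CPM (log2FC 5.39). NCU01648, a protein O-mannosyltransferase, had a log2FC of 4.88, which was not called without input 3 (edgeR, adjusted p = 0.0507). Outside the list, NCU06003 and NCU05937 are both named for the synthesis of GDP-mannose, and the former was called at 5.03 while the latter was at 0.38 and was not.

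In the list of MAP kinase, G protein and cAMP signalling, 13 of 30 members (43.3%) were higher and 0 were lower, with a median log2FC of 1.62, 1.09 above that of the 1538. The count higher was 5 without pull-down 1, 7 without pull-down 3, 5 without input 2 and 6 without input 3, and between 5 and 22 over the 16 other fits. When transcripts were taken by at least 10 counts in each wild-type input, 22 of 51 members were higher. Their median of 1.81 was then no higher than that of all 3576 transcripts so taken (difference -0.02). gng-1 (NCU00041) led it, followed by a protein with a Ras-GAP domain, NCU01642, with 88.5, 47.9 and 80.1 CPM in the pull-downs and 1.45 and 1.84 CPM in the inputs (log2FC 5.45 ± 1.06). The kinases of the cell wall integrity pathway that could be compared were mik-1 (NCU02234), a MAP kinase kinase kinase, with a log2FC of 3.21 ± 0.81, and mek-1 (NCU06419), the MAP kinase kinase, with 2.74 ± 0.74 (edgeR's quasi-likelihood test, adjusted p = 0.00659 and 0.0108). Without input 3 neither call held (edgeR, adjusted p = 0.104 and 0.0624), and that of mek-1 was also lost without input 2 (adjusted p = 0.112) or pull-down 1 (adjusted p = 0.0580). The lowest members were hpt-1 (NCU01489), a phosphotransfer protein, at -0.52 and mcb (NCU01166), the regulatory subunit of the cAMP-dependent kinase, at -0.81. Neither passed the test, and both were above 0 with total counts as library sizes.

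Of the genes that the study names for cell wall stress, ghx-2, ags-1, mik-1 and mek-1 have been given. spz-1 (NCU02049), which codes for an uncharacterized protein in the annotation, had 45.2, 22.9 and 40.8 CPM in the pull-downs and 1.21 and 1.84 CPM in the inputs, with a log2FC of 4.57 ± 0.70 (edgeR's quasi-likelihood test, adjusted p = 6.44e-05). The genes that follow had input counts and did not pass it. Their log2FC were 2.14 for lah-2 (NCU02793), a component of the Spitzenkörper at the hyphal tip, 1.06 for the motor myo-5 (NCU01440), 1.80 for os-4 (NCU03071), a MAP kinase kinase kinase of osmosensing, 0.96 for the transcription factor adv-1 (NCU07392), 0.69 for the clock gene frq (NCU02265) and 1.19 for fwd-1 (NCU04540), an F-box protein of the clock. pp-1, mak-1, cot-1, os-5, vts-1, ve-1 and gh17-2 had 3 counts or fewer in at least 1 input and were not compared.

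In the list of RNA-binding, decay and stress granule proteins, 4 of 18 (22.2%) were higher and 0 lower, with a median of 1.06. The count higher was 2 without input 2, 1 without input 3 and 14 with total counts. prd-6 (NCU04242), the homolog of the nonsense-mediated decay factor UPF1, had 94.6, 68.5 and 89.6 CPM in the pull-downs and 2.18 and 0.918 CPM in the inputs, a log2FC of 5.77 ± 0.91 (edgeR's quasi-likelihood test, adjusted p = 0.000103). The DEAD-box helicase ded1 (NCU01369) followed at 4.10 ± 1.02, with an adjusted p of 0.101 without input 3 (edgeR). gul-1 itself (NCU01197) had 768, 509 and 696 CPM in the pull-downs and 105 and 123 CPM in the inputs. Its log2FC was 2.53 ± 0.82 (edgeR, adjusted p = 0.0314), and the call was lost without pull-down 1, pull-down 3, input 2 or input 3 (adjusted p between 0.104 and 0.179). The transcripts of the poly(A)-binding protein (NCU04799), of pub (NCU07874) and of scp-160 (NCU03897) had log2FC of 1.40, 2.15 and 1.06 and were not called. The lowest in the list were NCU05488 at -0.83 and NCU04288 at -0.97, neither of them called and both above 0 with total counts.

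Transporters and plasma membrane ATPases had 8 of 21 members (38.1%) higher and 0 lower, with a median log2FC of 1.68. NCU00754, named multidrug resistant protein, led them at 3.81 ± 1.13 (edgeR's quasi-likelihood test, adjusted p = 0.0196, and 0.0708, 0.114 and 0.151 without pull-down 1, input 2 and input 3). The sodium ATPase ena-1 (NCU05046) had 17.4, 16.7 and 21.5 CPM in the pull-downs against 2.42 and 1.84 CPM in the inputs (log2FC 3.12), and its call was lost without pull-down 3, input 2 or input 3 (edgeR, adjusted p = 0.0542, 0.0926 and 0.124). The copper transporters tcu-1 (NCU00830) and tcu-2 (NCU03281) were at the lower end with -0.57 and -0.77, not called, and above 0 with total counts. No member of this list was called with TMM computed on the 1538 transcripts, or without input 2 or input 3, and 1 and 2 were called without pull-down 1 and pull-down 3.

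Lists of the general stress response had no called member with TMM on the 22 libraries, but their calls depended on the scaling and on the choice of transcripts. Among tested genes left out for few input counts, 14 of 32 chaperones, 7 of 23 antioxidant enzymes and 2 of 3 of the trehalose list were called higher. Of all 5576 features so left out, 1099 were. With at least 10 counts in each wild-type input as the limit, 10 of 26, 6 of 15 and 2 of 9 were higher, against 26.9% of 3576. The chaperone list had 0 of 14 called and a median log2FC of -0.15, which was above 0 with total counts, TMMwsp or DESeq2 on the 22 libraries, with hsp70-2 (NCU02075), an Hsp70 chaperone, at 2.31 (edgeR, adjusted p = 0.0784) and the chaperonin subunit NCU03980 at -1.48 (0.52 with total counts). The antioxidant list had 0 of 5 called and a median of -1.60, above 0 with total counts alone, with sod-2 (NCU01213), a superoxide dismutase, at 1.01 and gst-1 (NCU05780), a glutathione transferase, at -2.56. In gst-1 the counts were low throughout, with 5, 13 and 17 in the pull-downs and 5 and 10 in the inputs. In the chaperone list DESeq2 on the 5 libraries called 2 higher and 6 lower and edgeR on the 5 libraries 2 and 4, whereas DESeq2 on the 22 libraries called 3 higher and 0 lower and total counts gave 4 and 0. In the antioxidant list 4 were lower with TMM on the 1538 transcripts and in both fits of the 5 libraries, 2 were lower with protein-coding genes only, and 1 was higher with total counts. The list of trehalose, glycogen and glycerol metabolism had 0 of 6 called and a median of 0.56.

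The ubiquitin, proteasome and autophagy list was the nuclear list with the most members on the low side. Of 35, 0 were higher and 2 (5.71%) were lower, and its median of -0.63 was 1.15 below that of the 1538, although the median itself was 1.56 with total counts and 0.06 with DESeq2 on the 22 libraries. Of 42 tested members left out for few input counts, 14 were called higher. With at least 10 counts in each wild-type input as the limit, 12 of 60 were higher and 2 lower. Their median was then 0.48, still 1.35 below that of the transcripts so taken. In the standard medium the 35 had a median of 0.22, with 4 higher and 2 lower. NCU05363, an ATPase subunit of the 26S proteasome, had 66, 42 and 63 counts in the pull-downs and 32 and 44 in the inputs, or 1.10, 1.78 and 1.09 CPM against 7.74 and 10.1 CPM. Its log2FC was -2.76 ± 0.58 (edgeR's quasi-likelihood test, adjusted p = 0.00159). pex4 (NCU02636), a ubiquitin-conjugating enzyme, had a log2FC of -2.07 ± 0.60 (edgeR, adjusted p = 0.0172, and 0.0512 to 0.103 without any 1 of the 5 libraries), and 0.13 with total counts. The highest member, rpn-4 (NCU01640), the transcription factor of proteasome genes, was at 1.34 and was not called.

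Most of the translation and energy lists lay near the median of the 1538. Of the 40S ribosomal proteins 3 of 17 (17.6%) were higher, led by NCU01452 (S1) with 65.7, 37.8 and 59.6 CPM in the pull-downs against 5.56 and 4.13 CPM in the inputs and a log2FC of 3.49 ± 0.82 (edgeR, adjusted p = 0.0660 without input 3), and of the 60S proteins 2 of 25 (8%) were higher. Their medians were 0.23 and 0.64. Without input 2 or input 3 the 40S count was 1 and 0, and the 60S count was 0 without pull-down 1, pull-down 3, input 2 or input 3. With total counts they were 8 and 16, whereas DESeq2 on the 5 libraries called 4 of the 40S list higher and 5 lower, and 3 of the 60S list higher and 3 lower. Translation factors had 0 of 15 called and a median of 0.75, glycolysis and fermentation 1 of 15 higher (0 without any 1 of the 5 libraries) and a median of 0.56, and the nuclear respiratory chain 1 of 11 higher and a median of 0.09. The latter member was atp-2 (NCU05430), whose call was lost without pull-down 1, pull-down 3, input 2 or input 3 (edgeR, adjusted p = 0.0964 to 0.173). Among histones hH3 (NCU01635) was higher at 2.51 (edgeR, adjusted p = 0.0600 without input 2) and the other 4 were not called. Of clock-controlled and conidiation genes 4 of 19 (21.1%) were higher, with a median of 0.06. Besides prd-6 these were ccg-6 (NCU01418) at 4.35 ± 0.71, ccg-15 (NCU08936) at 3.85 and al-2 (NCU00585), the phytoene synthase of carotenoid synthesis, at 3.27. The call of al-2 was lost without any 1 of the 5 libraries (edgeR, adjusted p = 0.0562 to 0.211).

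**Figure D4:**
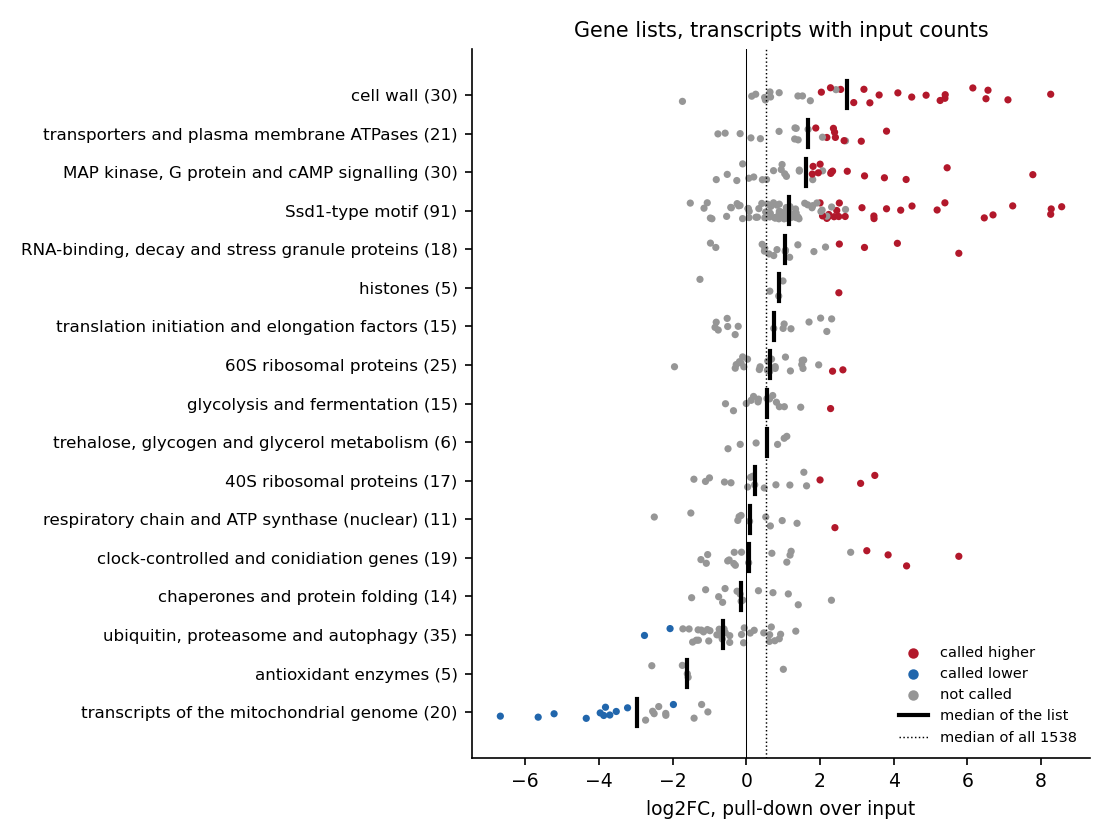
log2FC of pull-down over input (horizontal) for each transcript with input counts in 17 lists, ordered by median, with the number of transcripts in parentheses. Red points were called higher, blue points lower and grey points in neither direction; vertical bars are list medians and the dotted line is the median of 0.53 over the 1538 transcripts. The cell wall list has the highest median, 2.74, and the transcripts of the mitochondrial genome the lowest, -2.98.

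A motif of the Ssd1 type, complete or with 1 mismatch, was recorded by the study in transcripts of 363 genes, 91 of which had input counts. Of these 24 (26.4%) were higher and 0 lower, with a median log2FC of 1.15, 0.62 above that of the 1538. The count higher was 14 without pull-down 1, 15 without input 2 and 13 without input 3, and 66 with total counts. Only 2 of the 91 held the complete motif. The study obtained the list by scanning the transcriptome for a yeast motif, and the list was taken up here with earlier results of these data known. The 363 genes held 41.7, 42.3 and 43.6% of the protein-coding counts in the pull-downs and 7.05 and 6.69% in the inputs. In the pull-downs most of this came from tah-3 (NCU03686), the largest single part, and NCU05404, with the shares given above, and not from the list at large. Also on the list were NCU00811, NCU05789, NCU01477, dpm (NCU07965) and gul-1 (NCU01197), while NCU06737, gng-1 and kal-1 were not.

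In the other direction, 11 of the 25 protein-coding transcripts called lower were encoded by the mitochondrial genome. Of the 20 mitochondrial transcripts with input counts, 0 were higher and 11 (55%) were lower, with a median log2FC of -2.98, and all 20 were below 0. The median remained below 0 in each of the 16 other fits, from -3.70 to -0.53, while the count called lower varied between 1 (total counts as library sizes) and 19, and was 3 without input 2 and 7 without pull-down 2. Mitochondrial transcripts held 0.0365, 0.0341 and 0.0302% of the protein-coding counts in pull-downs 1, 2 and 3, against 2.42 and 0.756% in inputs 2 and 3, so that input 2 stood above input 3 and both stood above every pull-down. In the wild-type the shares were 2.97, 1.71 and 4.04% in the pull-downs and 7.28, 4.72 and 5.86% in the inputs.

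The lowest log2FC was that of NCU16011, a mitochondrial open reading frame of unknown product, with 3, 4 and 6 counts in the pull-downs and 67 and 21 in the inputs (-6.67 ± 0.96, edgeR's quasi-likelihood test, adjusted p = 3.62e-05). It was the single protein-coding transcript called lower in all 16 other fits. NCU16005, named mitochondrial ribosomal protein S5, had 2 counts in each pull-down and 15 and 6 in the inputs (log2FC -5.65 ± 1.0), and NCU16026 had 6, 0 and 4 counts against 17 and 5 (log2FC -5.22 ± 1.12, edgeR, adjusted p = 0.114 without input 2). With so few counts the size of these ratios is poorly fixed. Subunits of the respiratory complexes had more counts. The cytochrome c oxidase subunit NCU16003 had 102, 24 and 76 counts in the pull-downs, or 1.70, 1.02 and 1.32 CPM, and 111 and 37 counts, or 26.8 and 8.49 CPM, in the inputs. Its log2FC was -3.70 ± 0.97 (edgeR, adjusted p = 0.00913, and 0.148 without input 2).

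Subunits 1, 2 and 6 of NADH dehydrogenase were also called. The log2FC was -3.22 for subunit 1 (NCU16018), -3.82 for subunit 2 (NCU16001) and -3.87 for subunit 6 (NCU16004), and none of these calls held without input 2. Subunit 9 of the ATP synthase (NCU16027) was at -1.98 and was called, although not without any 1 of the 5 libraries (edgeR, adjusted p = 0.0747 to 0.390), whereas cytochrome b (NCU16013) was at -2.50 and was not (edgeR, adjusted p = 0.0663). The endonucleases NCU16021, NCU16010 and NCU16015, whose reading frames lie within mitochondrial introns, had log2FC of -4.34, -3.96 and -3.53, of which only that of NCU16010 was called in each fit without 1 of the 5 libraries. Counts of such nested genes may include reads of the host gene, so their separate values are uncertain.

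The 14 nuclear transcripts called lower mostly had no product name. The lowest were NCU04197, with 15, 10 and 7 counts in the pull-downs and 10 and 10 in the inputs (log2FC -3.21 ± 0.76), and NCU08677, with 103, 49 and 48 counts against 53 and 40 (log2FC -2.84 ± 0.71, edgeR, adjusted p = 0.0584 without input 2). NCU06617, the regulatory light chain of myosin, had 31, 38 and 34 counts against 20 and 20 (log2FC -2.41 ± 0.82, edgeR's quasi-likelihood test, adjusted p = 0.0380, and 0.104 to 0.137 without pull-down 1, pull-down 3, input 2 or input 3). The remaining 5 features called lower were rRNA, among them NCU15719. It received 5099925 to 8031619 counts in the pull-downs and 7617318 and 3485138 in inputs 2 and 3. Its log2FC was -2.90, not called without pull-down 1, pull-down 3, input 2 or input 3. The nuclear protein-coding transcripts called lower came from shorter genes. Their genomic span had a median of 1732 bases, against 2966.5 bases for the 1246 transcripts called in neither direction and 3448.5 bases for the 236 called higher, with quartiles of 1149.5 to 2125.75, 2056.5 to 4118.5 and 2525 to 4818 bases. The part of gene length in the calls was not tested. On chromosomes I to VII between 13.2 and 19.1% of the transcripts were called higher.

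The wild-type, which has no tag, shows what the beads held by themselves. No transcript was called there: pull-down over input with Nikkomycin Z gave 0 of the 1538 higher and 0 lower (edgeR's quasi-likelihood test, adjusted p). Among all 7114 features tested it gave 0 and 0 (0%). At an unadjusted p under 0.05 the counts were 14 and 9 of the 1538, against 203 and 44 of the 7114. For NCU06737 the wild-type had 12.9, 13.1 and 11.7 CPM in the pull-downs and 12.1, 13.0 and 10.0 CPM in the inputs, a log2FC of 0.10. The wild-type pull-downs therefore overlapped their inputs in the transcript that led the GUL-1-GFP comparison. The median of the cell wall list in the wild-type was 0.15 and that of the mitochondrial list -1.13.

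The difference between the strains was tested as an interaction of strain and fraction. The ratio of pull-down to input was higher in GUL-1-GFP for 106 of the 1538 transcripts (6.89%, against 9.17% of all features tested) and lower for 4 (0.26%, against 0.112%). The counts varied between 53 and 101, and 0 and 3, without any 1 of the 5 GUL-1-GFP libraries, and were lowest without input 3 for the higher and without input 2 for the lower transcripts. NCU06737 differed between the strains by 9.68 on the log2 scale (edgeR, adjusted p = 2.18e-05) and tah-3 (NCU03686) by 8.15 (adjusted p = 0.000171). Of the cell wall list 14 of 30 differed in this direction, of the signalling list 5 of 30, of the transporters 2 of 21, of the motif list 18 of 91, and of the ribosomal lists 1 of 17 and 0 of 25. NCU16011, NCU16005 and NCU16026 of the mitochondrial genome were the lower ones together with NCU03347. The last had 48, 19 and 36 counts in pull-downs 1, 2 and 3 and 7 and 10 in inputs 2 and 3 of GUL-1-GFP, against 3, 0 and 5 in the wild-type pull-downs and 0 in each wild-type input. For gul-1 (NCU01197) the difference of 1.75 did not pass the test (edgeR, adjusted p = 0.290).

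**Figure D5:**
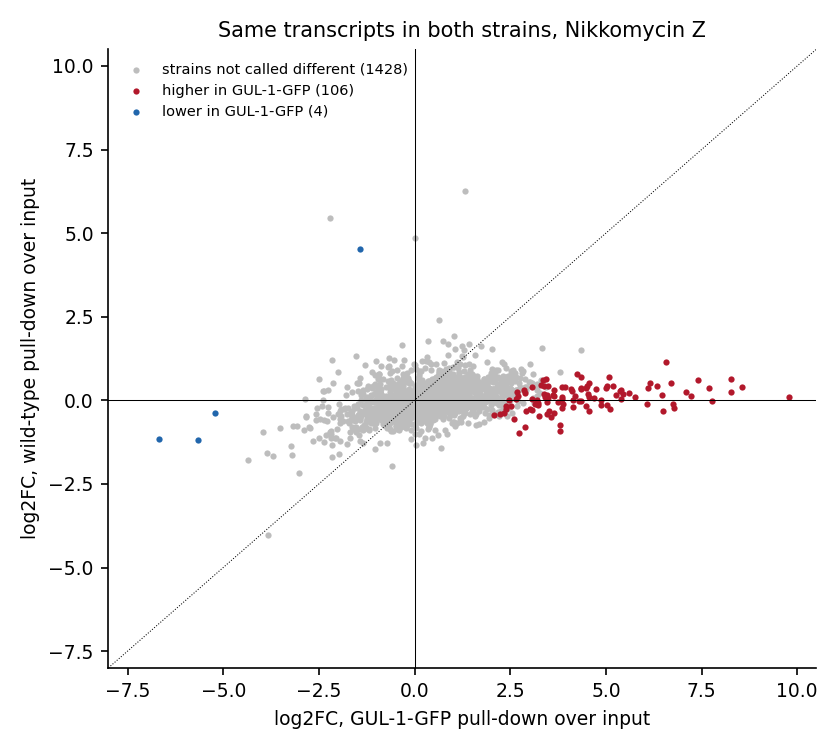
log2FC of pull-down over input with Nikkomycin Z in GUL-1-GFP (horizontal) and in the non-tagged wild-type (vertical) for the 1538 transcripts. Red points had a higher ratio in GUL-1-GFP by the interaction of strain and fraction (106), blue points a lower one (4) and grey points were not called (1428); the dotted line marks equal values. Red points spread along the horizontal axis from 2 upward while their wild-type values stay near 0, as for NCU06737 with 9.79 and 0.10.

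A comparison of GUL-1-GFP and wild-type pull-downs with each other leaves out the thin inputs. With Nikkomycin Z, 274 of the 1538 transcripts were higher in GUL-1-GFP (17.8%, against 7.11% of all features tested) and 60 were lower (3.9%, against 5.31%). The inputs still enter through the choice of the 1538, which used counts of the GUL-1-GFP strain, so the differences from all features may be set in part by it. Of the cell wall list 19 of 30 were higher and 0 lower, of the signalling list 9 and 0, and of the mitochondrial list 0 of 20 were higher and 17 lower. This comparison uses the same GUL-1-GFP pull-downs, so it is no separate replication. For NCU05404 the log2FC between the pull-downs was 7.57, for NCU02668 it was 7.15, and for gul-1 (NCU01197) it was 7.76, where the transgene itself also enters. Without pull-down 1 the counts were 142 and 30, without pull-down 2 they were 194 and 32, and without pull-down 3 they were 164 and 27.

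The inputs of the strains differed too. In the GUL-1-GFP inputs 76 transcripts were higher (4.94%, against 1.24% of all features tested) and 82 lower (5.33%, against 18.8%) than in the wild-type inputs with Nikkomycin Z. The transcripts were taken by their counts in these GUL-1-GFP inputs, so the differences from all features are fixed in part by that choice. Such differences enter a ratio to the input. NCU05789 had 4.35 and 4.13 CPM in the GUL-1-GFP inputs and 35.4, 35.3 and 32.8 CPM in the wild-type inputs and was called lower there, so that its log2FC of 7.23 over the input stood beside 4.08 between the pull-downs. For NCU00754, also called lower in the GUL-1-GFP inputs, the log2FC was 3.81 over the input and 1.11 between the pull-downs (edgeR, adjusted p = 0.414). NCU05363 was called higher in the GUL-1-GFP inputs, and its -2.76 over the input stood beside 0.46 between the pull-downs.

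The same 1538 transcripts were compared under standard growth conditions, in separate libraries. There 356 were higher (23.1%, against 18.2% of all features tested) and 21 lower (1.37%, against 0.45%), and the median log2FC was 0.96. The transcripts were taken by their counts in the Nikkomycin Z inputs and not in those of the standard medium. Differences between the treatments, and from all features, may be set in part by that choice. Of the 238 higher with Nikkomycin Z, 174 were among the 356, and of the 30 lower, 15 were among the 21. All 238 had a log2FC above 0 in the standard medium, with a median of 2.92, and all 30 had one below 0, with a median of -1.92. tah-3 (NCU03686) had 7.59 there, NCU05404 had 7.76, kal-1 (NCU03593) had 6.85, wsc-1 (NCU06910) had 3.66 and NCU16011 had -5.23. Of the lists, cell wall had 18 of 30 higher with a median of 2.90, and mitochondrial transcripts 11 of 20 lower with a median of -2.85. The pull-downs of the standard medium were less alike in the share of the 12 leading transcripts, which were chosen by their log2FC with Nikkomycin Z. These held 28.1, 49.5 and 45.2% of the protein-coding counts in pull-downs 1, 2 and 3, against 52.3, 49.8 and 52.7% with Nikkomycin Z. Mitochondrial transcripts held 6.08 and 2.04% in inputs 1 and 2, against 2.42 and 0.756% in inputs 2 and 3 with Nikkomycin Z. Without pull-down 1 of the standard medium the counts were 336 and 34, and without its input 1 they were 231 and 11.

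Whether Nikkomycin Z changed the ratio of pull-down to input was tested as an interaction of treatment and fraction in GUL-1-GFP. Of the 1538 transcripts 0 were higher and 0 lower at an adjusted p under 0.05 (edgeR's quasi-likelihood test). At an unadjusted p under 0.05 they were 5 and 155, against 488 and 428 of all 7114 features tested. The 1538 were taken by counts in the Nikkomycin Z inputs, so the excess of lower values may be set in part by that choice. With DESeq2 on the 22 libraries 0 and 8 were called. Among all features tested edgeR called 1 higher (0.0141%) and 0 lower. Without pull-down 1 or without input 1 of the standard medium the counts remained 0 and 0, with 1 and 195, and 9 and 239, at an unadjusted p under 0.05. With 2 inputs for each treatment the spread of the interaction was wide, as for gng-1 (NCU00041), whose 7.78 with Nikkomycin Z and 5.94 without gave a difference of 1.84 ± 0.94 (edgeR, adjusted p = 0.413). A change of the ratio with treatment was thus not detectable with edgeR at this depth for any of the 1538 transcripts.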

How the data were processed

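Counts per gene, deposited by the authors as whole numbers without normalization, were used for 22 libraries. Per the paper's methods, single-end reads of stranded libraries were aligned with Tophat, kept at unique locations and tallied on exons with HTSeq. The submitters' processing notes instead name CASAVA 1.8.2, HISAT2 2.1.0 and StringTie 1.3.3b, without roles. The genome build is not given in the sources used here. The titles of both standard-medium GUL-1-GFP inputs name a pull-down, and their fraction label (total RNA) was followed. Gene classes and symbols came from the NC12 annotation (10590 of 10592 features matched), and product names from the study's supplement.

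Total counts lay between 259583 and 28372176 per library and protein-coding counts between 59 and 5200733. Features were kept by filterByExpr (minimum count 10), scaled by TMM and fitted in 1 model of 8 groups with edgeR 4.0.16 in R 4.3.3. Calls were made with edgeR's quasi-likelihood test at a Benjamini-Hochberg adjusted p under 0.05, counted also past a log2FC of 2. SE is the absolute log2FC divided by the square root of the quasi-likelihood F statistic. It was derived from the test and not estimated separately. Levels were not compared between genes, as counts were not scaled by length.

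Named were the 12 highest and 12 lowest called protein-coding transcripts with separate groups, the 2 highest and 2 lowest of each list, gul-1 and the cell wall stress genes of the study. Values of some genes under this rule are not reported here. The members and lists were chosen with earlier results of these data known. Alternatives were other scalings and filters, DESeq2 1.42.0, fits of the 5 libraries, a replicate block, other limits for input counts, counts divided by 2, and libraries left out. The alternatives for the comparison of pull-downs and for the standard medium were chosen after seeing the data.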

Additional observations from a re-analysis of the deposited data

Results flagged for a closer look

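The effect of fraction differed between the strains, by the test of the interaction itself (edgeR's quasi-likelihood test, adjusted p under 0.05), for 106 transcripts with a higher and 4 with a lower ratio in GUL-1-GFP than in the wild-type with Nikkomycin Z. Among the named transcripts, the log2 difference between the strains was 9.68 for NCU06737, 8.15 for tah-3 (NCU03686), 8.01 for NCU00811, 7.79 for gng-1 (NCU00041), 7.62 for NCU05404, 7.33 for kal-1 (NCU03593), 7.10 for NCU05789, 6.99 for NCU06189, 6.86 for NCU09326, 6.85 for NCU02668, 6.80 for NCU04373 and 6.18 for NCU01477. It was 5.66 for prd-6 (NCU04242), 5.27 for NCU01642, 4.71 for NCU00754, 4.04 for spz-1 (NCU02049), 3.98 for ccg-6 (NCU01418), 3.76 for ded1 (NCU01369), 3.30 for ags-1 (NCU08132) and 3.07 for NCU01452. It was -4.47 for NCU16005, -4.82 for NCU16026 and -5.52 for NCU16011. Groups of 2 or 3 libraries were too small for a test of single outlying libraries.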

How the results depend on the processing

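The main counts, 238 transcripts higher and 30 lower, were 757 and 1 with total counts as library sizes, 112 and 59 with TMM on the transcripts with input counts, 577 higher with DESeq2 on the 22 libraries, and 328 and 199 lower with DESeq2 and edgeR on the 5 libraries. Requiring 10 counts in each input gave 122 higher of 756, and 10 counts in each wild-type input 962 higher of 3576. Leaving out 1 library, with the wild-type input 3 of the standard medium among them, gave 96 to 249 higher and 9 to 35 lower. The other alternatives kept both counts within 1.5 times. For the interaction of strain and fraction (106 and 4), total counts gave 161 and 0, DESeq2 301 higher, and leaving out 1 library 53 to 101 and 0 to 3. For the interaction of treatment and fraction DESeq2 called 8 lower. For the comparison of pull-downs (274 and 60) total counts gave 12 lower, and leaving out 1 pull-down 142 to 194 and 27 to 32. In the standard medium (356 and 21), leaving out pull-down 1 or input 1 gave 231 to 336 and 11 to 34. The causes of these shifts were not tested.

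No label gives a shared culture, so the replicate numbers were not taken as pairs. The pull-down and input that share numbers 2 and 3 had correlations of deviations of -0.05 and 0.05. With 2 inputs the deviations mirror each other, so these correlations cannot show whether the libraries were paired. With the replicate block the counts were 178 and 21, the interaction of strain and fraction had 84 and 2, and that of treatment and fraction 0 and 0.

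With total counts as library sizes, 30 named log2FC below 0 turned positive: 0.63 for hH4-2 (NCU00212), 0.41 for ncw-5 (NCU00716), 1.38 for tcu-1 (NCU00830), 1.23 for mcb (NCU01166), 0.58 for NCU01282, 1.68 for hpt-1 (NCU01489), 1.50 for emp-6 (NCU02252), 1.89 for NCU02509, 0.47 for NCU02547, 0.13 for pex4 (NCU02636), 0.42 for NCU03151, 1.53 for tcu-2 (NCU03281), 0.61 for NCU03738, 1.13 for ada-5 (NCU03931), 0.52 for NCU03980, 1.60 for tre-2 (NCU04221), 1.30 for NCU04288, 1.29 for NCU04344, 0.80 for ubi::crp-6 (NCU04553), 1.28 for NCU04640, 0.74 for nuo21 (NCU05221), 0.032 for NCU05275, 1.95 for NCU05454, 1.27 for NCU05488, 0.70 for ccg-16 (NCU05495), 1.72 for gpi-1 (NCU07281), 0.89 for NCU07567, 1.02 for ccg-13 (NCU08907), 0.77 for NCU16017 and 0.92 for NCU16023. With DESeq2 on the 22 libraries 7 did: tcu-1 (NCU00830) 0.10, hpt-1 (NCU01489) 0.15, emp-6 (NCU02252) 0.086, NCU02509 0.38, tre-2 (NCU04221) 0.17, NCU05454 0.52 and gpi-1 (NCU07281) 0.29. For chs-3 (NCU04251) the log2FC was -0.45 with TMM on the transcripts with input counts and with DESeq2 on the 5 libraries, -0.10 with protein-coding genes only, -0.29 with edgeR on the 5 libraries, and -0.38 (without input 3) to 1.06 (without input 2) when 1 library was left out. In such fits tcu-2 (NCU03281) had -1.29 to 0.11, tcu-1 (NCU00830) -1.08 to 0.31 and NCU16017 -1.84 to 0.077.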
